A study of Rattus norvegicus with 88 samples.

Results

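Among the genes measured in the infralimbic cortex (IL) of outbred rats, 162 combined a clear signal in every rat with a large spread between rats. They were chosen from 17252 rows of the deposited table by 3 thresholds on the log2 value over 81 libraries: a mean of at least 6, a minimum above 3 and an SD of at least 0.6. A log2 value here is log2(adjusted count + 1), so a difference of 1 is a doubling. The mean and minimum were met by 11872 genes, and 164 of those also met the SD. Of the 164, 2 were left out by identifier as named in the rule, and 0 because the sexes did not overlap. Genes of the immediate early, circadian clock, striatal marker and MHC classes were also to be left out, but neither the table nor the reference used here paired any identifier with a name, so such genes may be among the 162. For the same reason the variable genes are given below by Ensembl identifier, without a function or a sequence, and the labelled tissue was not checked against marker genes.

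IL is the ventral part of the rat medial prefrontal cortex, an area known for its part in emotion, stress responses and the extinction of learned behavior. Heterogeneous Stock (HS) rats, bred from crosses of inbred founder strains, are kept as an outbred stock, so that each rat carries its own mosaic of founder chromosomes. In such a population, the level of a gene can differ between rats through inherited variants near it, through the state of the animal, through the makeup of the dissected tissue and through the handling of the sample. Each of these can move a single gene or several together, and none was tested here as a cause.

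The rats were adult HS animals of both sexes, group housed, with no behavioral testing and no drug. Bilateral IL was taken from frozen sections of each rat, polyadenylated RNA was sequenced, and each library stood for 1 rat. The 81 libraries came from 40 females and 41 males, and the labels placed 16 rats in rat batch 2, 25 in batch 3, 24 in batch 4, 1 in batch 5 and 15 in batch 6. The labels do not say what a rat batch is. A further 7 of the 88 labelled libraries carried a note of removal and were not analysed here.

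The columns of the table ran through their names in ascending order 3 times. These stretches, called column runs here, held 22, 16 and 43 rats, and nothing in the sources used here says what they stand for. Column run and rat batch overlapped strongly. Of the rats in batch 2, 15 were in run 1 and 1 was in run 2, and all rats of batches 4, 5 and 6 were in run 3. Batch 3 alone was spread over the runs, with 7 rats in run 1, 15 in run 2 and 3 in run 3. Depth, estimated from the step that 1 read makes in low values, was 5.92 M reads in male 14 (M, mega), at least 12.2 M in the others and at most 31.8 M. Its median was 16.8 M in run 1, 15.2 M in run 2 and 19.2 M in run 3. Male 14 was the shallowest library, and male 38 was farthest from the median in 26.3% of all well-expressed genes, so results that rest on either are also given without it.

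The spread that chose the variable genes is a description. Their median SD was 0.71, against 0.20 over the 11872 genes that met the mean and minimum, and the 95th percentile of those genes was 0.46. An SD of at least 1 was found in 21. Between the lowest and the highest rat, the variable genes spanned 2.15 to 7.45 on the log2 scale, with a median of 3.48, or 11.2-fold. Most were of low or moderate abundance: 105 had a mean from 6 to 8, 38 from 8 to 10 and 19 of at least 10. Just inside the threshold lay ENSRNOG00000054391 (SD 0.6001) and ENSRNOG00000052445 (SD 0.6002), and just outside lay ENSRNOG00000057798 and ENSRNOG00000008644 (SD 0.5995). A further 54 genes met the mean and the SD but not the minimum. The 162 rows held 158 distinct profiles, because 5 identifiers, ENSRNOG00000046600 among them, carried the same values in every library and cannot be told apart.

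ENSRNOG00000047746 had the largest SD of all. It was also the most abundant of the variable genes. In run 1 its values were 14.46 (lowest), 16.02 (median) and 17.79 (highest), in run 2 they were 15.32, 18.13 and 19.998, and in run 3 they were 12.55, 13.92 and 17.61. Run 2 reached the highest values and run 3 the lowest, and all 3 runs overlapped. Batch 3 alone gave a similar order. There, the 7 rats of run 1 lay between 15.11 and 16.93, the 15 rats of run 2 between 15.32 and 19.998, and the 3 rats of run 3 at 14.72, 14.56 and 13.96. On the linear scale, this single row took from 0.0339% to 5.24% of a library's adjusted counts, with a median of 0.368% in run 1, 1.57% in run 2 and 0.0884% in run 3. All 162 variable genes together took between 0.349% and 8.93%. The row shared by ENSRNOG00000046600 and the other 4 identifiers followed it, with medians of 13.46, 14.87 and 11.52 in runs 1, 2 and 3 and a Pearson correlation of 0.96 over the 81 rats, the highest among the 12403 pairs of distinct profiles. The correlation was 0.89 after rat batch, column run and sex were taken out.

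Most variable genes differed between rat batches, as did most genes. Values were fitted with limma on all 17252 genes, with sex as a covariate and without the single rat of batch 5. By this test, 122 of 162 variable genes (75.3%) passed an adjusted p of 0.05 for a difference between batches, where 57.6% of all genes and 69.9% of those past the mean and minimum were called. The choice of variable genes favors such calls, since a difference between batches adds to the SD, so the higher share is not a result about them. The smallest adjusted p was that of ENSRNOG00000031244 (7.65e-20, limma). Its values were 7.70, 8.50 and 9.11 (lowest, median and highest) in run 1, 8.15, 8.46 and 8.71 in run 2, and 6.19, 7.29 and 8.23 in run 3. The highest rats of run 3 reached the range of the lowest rats of runs 1 and 2.

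Batch and run were then set against each other. Between column runs given rat batch, 41 variable genes (25.3%) were called, against 16.8% of all genes and 21.9% of those past the mean and minimum. A difference between runs also adds to the SD, so the higher share is not a result about the variable genes. With inverse normal values per gene, 17 were called (10.5%), a smaller share than the 12.7% of all genes. Between rat batches given column run, 4 were called (2.47%), against 2.76% and 3.54%. Of the 122 genes called between batches, 118 were not called once column run was in the fit. There, 29 variable genes and 2820 of all 17252 genes had an unadjusted p under 0.05. A lost call does not show that batches did not differ. The terms are separated by the 25 rats of batch 3, of which 3 were in run 3, and by batches that share a run. Within batch 3, 45 variable genes (27.8%) differed between the runs, against 16.9% of all genes and 22.4% of those past the mean and minimum. Of the 45, 37 were among the 41, and the choice of variable genes favors these calls too. Within run 3, 6 differed between batches 4 and 6, against 3.46% of all genes and 4.41% of those past the mean and minimum. Within run 1, limma called 0 variable genes and 0 genes in all between batches 2 and 3, while 19 variable genes and 784 of all genes had an unadjusted p under 0.05.

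The smallest adjusted p between runs given batch was that of ENSRNOG00000054391 (4.27e-08, limma). This gene lay at 11.73, 12.34 and 12.87 (lowest, median and highest) in run 1, at 12.09, 12.32 and 12.47 in run 2 and at 10.72, 11.28 and 11.63 in run 3. Every rat of run 3 lay below every rat of runs 1 and 2. The 3 rats of batch 3 in run 3 read 11.13, 10.91 and 11.42, like the rest of run 3 and unlike the other rats of their batch, which lay at or above 12.09. In no other variable profile did run 3 stand wholly below or wholly above the other runs. How many of all genes do so was not counted, so this is no result about the variable genes. ENSRNOG00000059061 was also lowest in run 3, with medians of 7.60, 7.77 and 6.17, an adjusted p of 1.12e-06 (limma) and values from 5.46 to 6.93 in run 3 against 6.93 to 8.55 in run 1.

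ENSRNOG00000055068 differed between the runs in another way. Its values were 7.14, 7.91 and 10.51 (lowest, median and highest) in run 1, 5.17, 5.81 and 6.70 in run 2, and 4.46, 7.58 and 9.26 in run 3. Run 2 lay wholly below run 1, whereas run 3 spanned both. Within batch 3, the 7 rats of run 1 lay between 7.74 and 9.12, and the 15 rats of run 2 between 5.17 and 6.70, so the groups did not overlap. The 3 rats of batch 3 in run 3 read 8.02, 8.36 and 8.67. The adjusted p was 6.17e-06 between runs given batch and 0.12 between batches (limma). ENSRNOG00000055179 went the opposite way in batch 3, with values of 4.39, 5.59 and 7.20 in the 7 rats of run 1 and 6.98, 8.0 and 9.0 in the 15 of run 2 (adjusted p 3.27e-05 between runs given batch, limma).

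All 4 genes called between batches given run, ENSRNOG00000046667, ENSRNOG00000023546, ENSRNOG00000000521 and ENSRNOG00000006146, had their lowest median in batch 6. With inverse normal values limma called 0 variable genes in this comparison (26, and 2935 of all 17252 genes, at an unadjusted p under 0.05). ENSRNOG00000000521 had medians of 8.39 in batch 2, 7.98 in batch 3, 7.87 in batch 4 and 6.78 in batch 6 (adjusted p 0.012, limma). Its 15 rats of batch 6 ranged from 5.88 to 8.42 and overlapped those of batch 4, from 6.83 to 8.88. ENSRNOG00000046667 had medians of 10.53, 10.23, 10.24 and 9.50 in the same order (adjusted p 0.011, limma), and male 26, at 7.43, was the lowest rat of batch 6.

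The variable genes formed groups that rose and fell together from rat to rat. Distinct profiles were joined by average linkage on 1 minus Pearson's r over the 81 rats, cut at a mean r of 0.6. This gave 10 groups of at least 3, called A to J by size, with 89 profiles (93 identifiers), and left 69 outside. Over all pairs of profiles, r had a median near 0 and ran from -0.83 to 0.96. An absolute r over 0.6 was seen in 9.59% of these pairs, against 6.52% of the pairs among all genes past the mean and minimum. Shared run or batch differences and shared far rats add both to the SD and to r, so the higher share is not a result about the variable genes. After rat batch, column run and sex were taken out, the share among the variable genes was 3.29%. The share after this step was not computed for the other genes. All correlations here are over rats that share batches and runs and carry no test. Profiles of a group were joined because they are correlated, so the calls counted within a group below are not separate results.

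**Figure D1:**
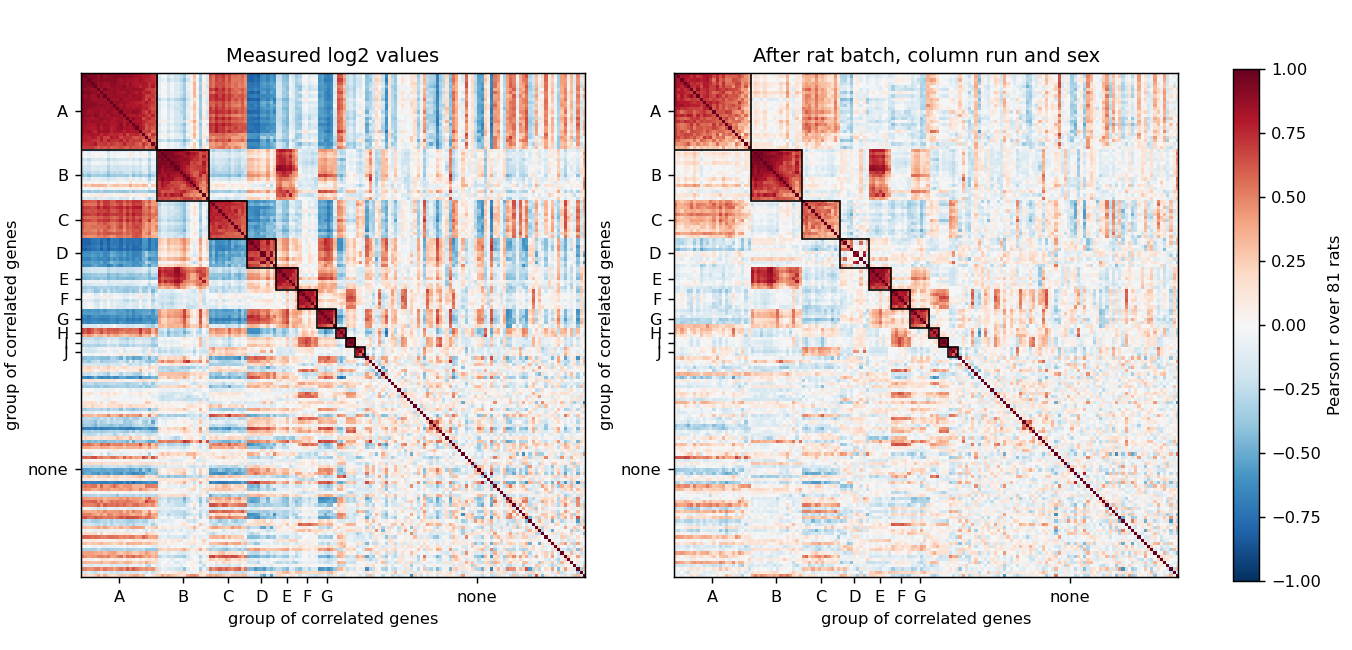
Pearson r over 81 rats between 158 distinct profiles, ordered by group (black squares, A to J) and then the 69 profiles in no group; the left panel uses the measured log2 values and the right panel the residuals after rat batch, column run and sex. The blocks of groups B, E and F keep their colour on the right (mean r 0.73, 0.78 and 0.76), whereas group D fades (0.20).

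Group A, the largest, held 24 profiles with a mean r of 0.80. It was lower in runs 1 and 2 and higher in run 3. Its leading gene, the one with the highest mean r with the rest, was ENSRNOG00000002863. This gene lay at 8.21, 10.18 and 10.89 (lowest, median and highest) in run 1, at 9.36, 10.05 and 10.99 in run 2 and at 10.33, 11.21 and 11.97 in run 3. Runs 1 and 2 overlapped widely, and run 3 overlapped them only where its lowest rats met their highest. In all 24 profiles the median of run 3 was above those of runs 1 and 2, with a median difference of 0.89 from run 1, or 1.85-fold, and of 1.02 from run 2. All 24 differed between batches and 15 between runs given batch, where 57.6% and 16.8% of all genes were called. Between batches given run limma called 0 of them, also with no adjustment of p. The mean r fell to 0.59 after batch, run and sex were taken out. Male 38, a rat of batch 2 in run 1, was the lowest rat in 21 of the 24 profiles, and without it the mean r was 0.78. Male 14 was the lowest rat of run 3 for ENSRNOG00000002863.

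Group C, with 12 profiles and a mean r of 0.70, was also highest in run 3 over all batches, but not within batch 3. Its leading gene ENSRNOG00000059506 had medians of 7.52, 7.04 and 7.99 in runs 1, 2 and 3, while the 3 rats of batch 3 in run 3 read 7.10, 7.63 and 7.52. All 12 profiles had their highest median in run 3 and, within batch 3, a lower median in run 2 than in run 1, by 0.55 at the median. The last point sets it apart from group A, where 10 of 24 profiles were higher in run 2 of batch 3 and the median difference, run 2 minus run 1, was -0.02. A group score was the mean over profiles of each rat's value in SDs from the gene's mean. The scores of groups A and C had a correlation over rats of 0.78, and 0.58 after batch, run and sex were taken out. Group C scored -0.32 ± 0.53 in run 1, -1.0 ± 0.64 in run 2 and 0.54 ± 0.60 in run 3 (mean ± SD). Within batch 3 its scores averaged -0.24, -1.03 and -0.36 in runs 1, 2 and 3, where those of group A averaged -0.69, -0.83 and 0.47. By limma, 3 of its profiles were called between runs given batch, where 16.8% of all genes were. Between batches given run 0 were called, and 5 had an unadjusted p under 0.05, as had 2820 of all 17252 genes.

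Group D held 9 profiles (13 identifiers), with ENSRNOG00000047746, the 5 identical rows, ENSRNOG00000059061, ENSRNOG00000031244 and ENSRNOG00000054391 among them, and moved against group A. Its scores were 0.67 ± 0.27 in run 1 (SD, n = 22), 1.09 ± 0.33 in run 2 (n = 16) and -0.75 ± 0.28 in run 3 (n = 43). Within batch 3 the scores averaged 0.58, 1.11 and -0.63 in runs 1, 2 and 3. The correlation of its score with that of group A was -0.83, and -0.25 after batch, run and sex were taken out. The mean r among its own profiles, 0.71, fell to 0.20, and within runs 1, 2 and 3 it was 0.24, 0.13 and 0.15. Column run alone took up a median of 68.1% of the variance of its profiles, the most of any group, against 57.1% in group A, 38.6% in group C and 44.4% in group G. The median was 20.3% over all variable genes and 20.4% over all genes past the mean and minimum. A difference between runs adds to the SD and to the r by which profiles were joined. A high share in a group is therefore favored by how the group was made. Of its 9 profiles, 9 differed between batches and 8 between runs given batch, against 57.6% and 16.8% of all genes (limma). Between batches given run 0 were called, and 1 had an unadjusted p under 0.05, as had 2820 of all 17252 genes.

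Group G, with 6 profiles and a mean r of 0.78, was also lower in run 3. Its leading gene ENSRNOG00000004757 lay at 7.19, 8.29 and 8.65 (lowest, median and highest) in run 1, at 7.26, 8.11 and 8.43 in run 2 and at 5.32, 7.34 and 8.52 in run 3. Unlike group D, the rats of run 3 spread widely. The score had an SD of 0.81 there, against 0.35 in run 1 and 0.41 in run 2, and the mean r within run 3 was 0.75. The lowest rats were female 22 and male 5. Between runs given batch, 1 of its profiles was called, where 16.8% of all genes were.

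**Figure D2:**
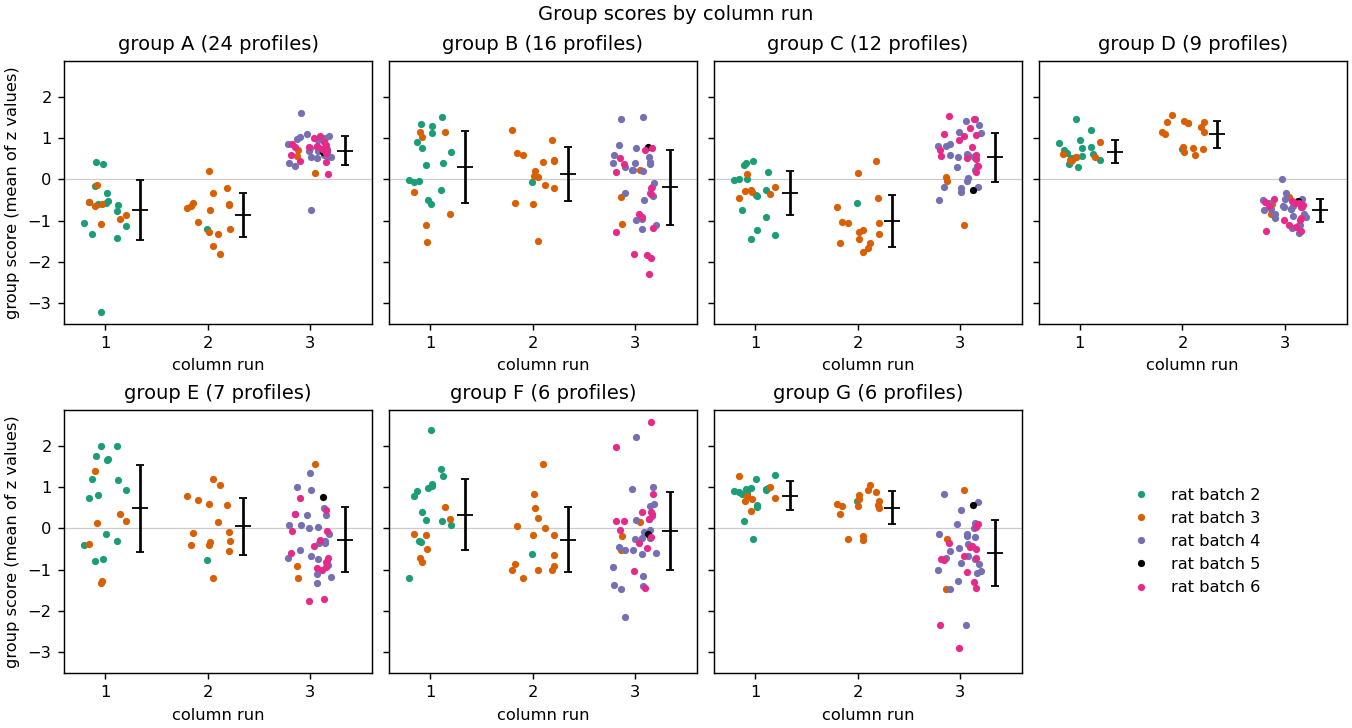
Group score (mean over a group's profiles of the value in SDs from the gene's mean) of each of 81 rats by column run, for groups A to G, coloured by rat batch; black bars are the mean and SD of each run. Groups A and C sit higher in run 3, groups D and G lower, and groups B, E and F overlap across the runs, but within batch 3 group C is not higher in run 3 (-0.36) than in run 1 (-0.24); in group D the score ran from 0.67 in run 1 and 1.09 in run 2 to -0.75 in run 3.

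Groups B, E and F varied mainly among rats of the same run. Group B had 16 profiles with a mean r of 0.75, and this stayed between 0.72 and 0.78 within each run and was 0.73 after batch, run and sex were taken out. Its leading gene ENSRNOG00000042838 ranged from 9.65 to 12.35 in run 1, 10.38 to 12.12 in run 2 and 9.40 to 12.28 in run 3, with medians of 11.44, 11.41 and 11.15. Between runs given batch limma called 0 of the 16, also with no adjustment of p, where 16.8% of all genes were called. Between batches 14 differed, where 57.6% of all genes did. By batch, the score of group B was 0.43 ± 0.68 in batch 2, 0.01 ± 0.82 in batch 3, 0.09 ± 0.73 in batch 4 and -0.67 ± 1.04 in batch 6 (mean ± SD). The lowest rats were male 26 and male 7, both of batch 6. Between batches given run 1 profile of group B was called, ENSRNOG00000046667. Of the 16, 11 had an unadjusted p under 0.05 there, as had 2820 of all 17252 genes. Within run 3, 3 of the 16 differed between batches 4 and 6, where 3.46% of all genes did (limma). The 16 profiles are correlated, so these counts are not separate results.

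Group E, with 7 profiles and a mean r of 0.78, moved with group B, with a correlation of their scores of 0.74, and of 0.74 also after batch, run and sex were taken out. Its leading gene ENSRNOG00000007830 had one of the largest SDs, 1.43. It lay at 6.30, 9.36 and 11.75 (lowest, median and highest) in run 1, at 6.95, 8.44 and 10.89 in run 2 and at 5.88, 8.24 and 11.12 in run 3. The runs overlapped almost fully. Of the 7 profiles, 6 differed between batches, where 57.6% of all genes did (limma). Between runs given batch 0 were called, also with no adjustment of p, where 16.8% of all genes were called.

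Group F held 6 profiles with a mean r of 0.79, all with higher fitted values in males, by 0.55 at the median. All profiles of groups G, I and J were also higher in males, by 0.07, 0.17 and 0.21 at the median, with 0 called by limma, also with no adjustment of p. The median difference of males from females in group B, all of whose 16 profiles were lower in males, was -0.37. ENSRNOG00000003183, one of group F, was the only variable gene called higher in males. Its values were 6.36, 7.25 and 8.55 (lowest, median and highest) in 40 females and 6.88, 8.03 and 9.33 in 41 males, with wide overlap. The difference, adjusted for batch, was 0.74 ± 0.12 (SE, adjusted p 5.95e-05, limma), and males had the higher mean in each of batches 2, 3, 4 and 6, by 0.28, 0.61, 0.83 and 1.19. The leading gene, ENSRNOG00000016957, was 0.51 ± 0.13 higher in males (SE, adjusted p 0.056, limma), which missed the threshold, though it was called without batch 2 or with no batch term. ENSRNOG00000020369, also of group F, was 0.62 ± 0.15 higher in males (SE, adjusted p 0.051, limma) and was called without male 38, without batch 2, with a pseudocount of 10, median centring or inverse normal values, with column run as a covariate and with no batch term. The highest rats of group F were male 7 and male 1, and the mean r without male 1 was 0.78.

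Between the sexes, 2 of 162 variable genes were called (1.23%), against 0.197% of all genes and 0.143% of those past the mean and minimum. Of all genes, 0.145% were called higher in males and 0.0522% higher in females. The rule was to leave out genes with no overlap of the sexes, but 0 were left out for this. A sex difference adds to the SD, so the choice of variable genes favors such calls. The higher share is therefore not a result about them. The second gene called, ENSRNOG00000050647 of group B, was higher in females. Its values were 5.46, 8.12 and 10.50 (lowest, median and highest) in females and 5.32, 7.09 and 9.19 in males. The difference of males from females was -0.97 ± 0.21 (SE, adjusted p 0.017, limma), and females were higher in each of the 4 batches, by 0.57 to 1.29. It was not called without batch 3, without batch 4, with no batch term or within run 3. Of the variable genes, 23 had an unadjusted p under 0.05, and of all 17252 genes 1339 had.

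The 3 smallest groups had 3 profiles each. Group H, led by ENSRNOG00000015049, was higher in run 3, with medians of 7.01, 7.04 and 7.77 in runs 1, 2 and 3. Between runs given batch limma called 0 of its 3 profiles, also with no adjustment of p. Between batches all 3 were called, where 57.6% of all genes were. Male 38 had its lowest score, -2.53. Without male 38 the score of run 1 was -0.67 in place of -0.75, and the mean r 0.79 in place of 0.81. Group I, led by ENSRNOG00000058039, had the highest mean r, 0.92, and its score was 3.84 in male 1 against at most 2.33 in any other rat. Without male 1, the mean r of group I was 0.90. Group J held ENSRNOG00000062127, ENSRNOG00000062155 and ENSRNOG00000062158, the last of which had the second largest SD, 1.80. ENSRNOG00000062158 lay at 6.89, 8.49 and 12.76 (lowest, median and highest) in run 1, at 7.10, 8.56 and 11.77 in run 2 and at 6.94, 10.19 and 12.66 in run 3. Each run spanned most of the whole range. Its r with ENSRNOG00000062127 was 0.79, and 0.84 after batch, run and sex.

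Of the 69 profiles outside groups, 44 had no other variable gene at an r of 0.6 or more, and 21 none at 0.4. Their median share of variance taken up by column run was 12.3%. Among the 69, 10 were called between runs given batch, where 16.8% of all genes and 21.9% of those past the mean and minimum were. Between batches 39 of them were called, where 57.6% and 69.9% were (limma). The variable genes with the largest SDs outside groups included ENSRNOG00000012216, ENSRNOG00000016220, ENSRNOG00000055608 and ENSRNOG00000011292. The nearest variable gene to ENSRNOG00000012216 had an r of only 0.23, and that to ENSRNOG00000055608 an r of 0.27.

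Several variable genes did not vary smoothly. Sorted values left a gap of at least 0.5 on the log2 scale, with at least 5 rats on each side, in 10 of 158 profiles (6.33%), against 13 of 11852 distinct profiles past the mean and minimum (0.11%). The choice of variable genes favors such profiles, since a gap adds spread. The widest gap was that of ENSRNOG00000036451. In 6 rats its value was between 3.91 and 4.25, and in the other 75 between 6.25 and 9.08. The 6 low rats, 5 females and 1 male, came from 4 batches and all 3 runs. ENSRNOG00000055608 was low in 11 rats, between 4.64 and 6.19, and high in 70, between 7.88 and 9.74. The 11 were 5 females and 6 males of 4 batches. ENSRNOG00000012216 was low in 19 rats, between 4.46 and 6.13, and high in 62, between 7.77 and 9.63. The low rats were 9 females and 10 males, 7 from batch 2, 4 from batch 3, 6 from batch 4 and 2 from batch 6. In none of these 3 genes did the low rats of one include more than 2 of the low rats of another, and correlations among the 3 lay between -0.08 and 0.03.

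**Figure D3:**
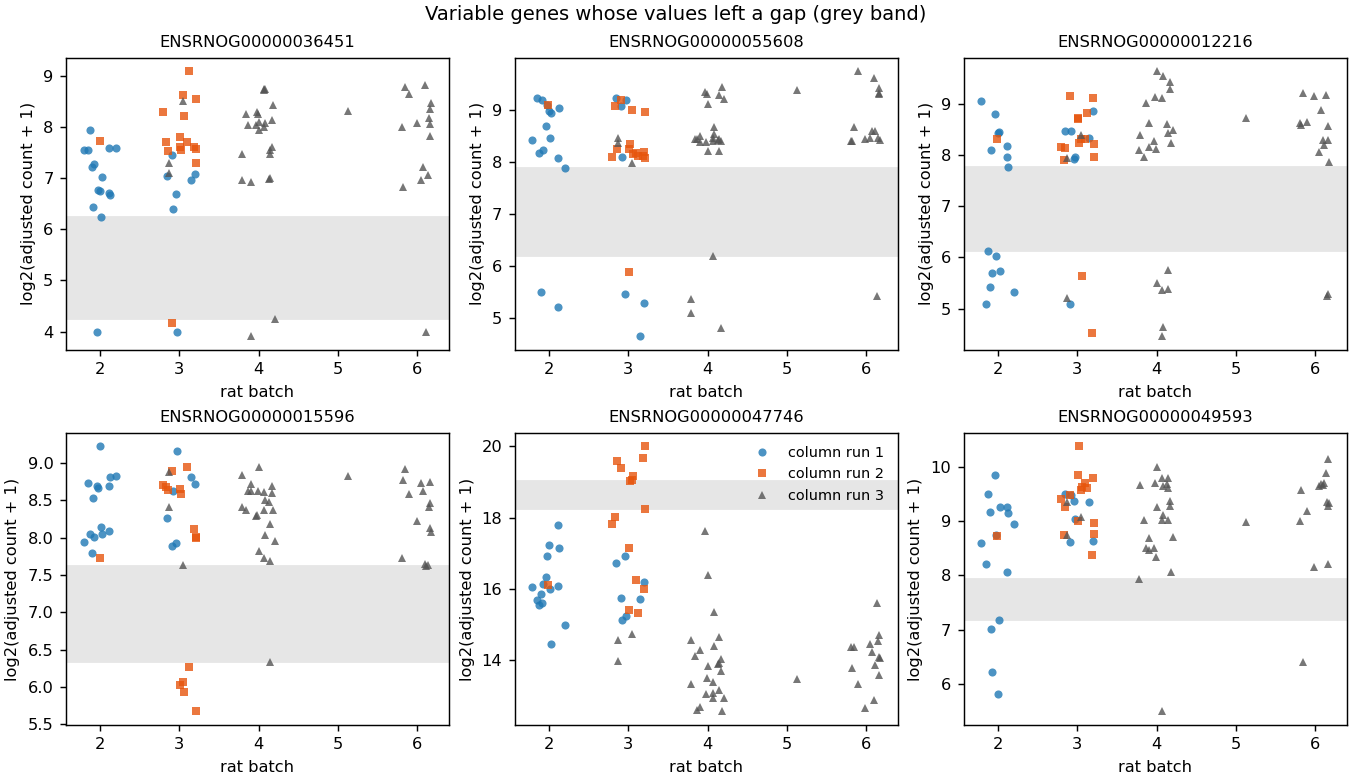
Log2(adjusted count + 1) of each of 81 rats by rat batch for the 6 variable genes with the widest gaps in their values, with the gap in grey and column runs as symbols. ENSRNOG00000036451, ENSRNOG00000055608 and ENSRNOG00000012216 have low rats in 4 batches, whereas 5 of the 6 low rats of ENSRNOG00000015596 are in batch 3, run 2, as are the 7 high rats of ENSRNOG00000047746.

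Some other gaps fell mainly in 1 run or batch. ENSRNOG00000015596 was low in 6 rats, between 5.67 and 6.34, and 5 of them were in run 2 of batch 3 and 1 in run 3. The other 75 lay between 7.62 and 9.22. ENSRNOG00000047746 was at or above 19.02 in 7 rats, all of batch 3 in run 2, and at or below 18.23 in the other 74. The row of ENSRNOG00000046600 set apart the same 7 rats, with values of at least 15.85. ENSRNOG00000049593 was low in 6 rats, between 5.49 and 7.17, of which 4 were in batch 2, and between 7.94 and 10.38 in 75. Over all 17252 genes, its most negative correlation was with ENSRNOG00000005505, which is no variable gene (r = -0.73 over 81 rats, SD 0.34). When the adjusted counts of both were added before taking the log, the SD of the sum was 0.12, below that of either. This was not particular to it. With their own most negative partners, the SD of the sum was also below that of either gene for ENSRNOG00000060486 (0.22, r = -0.66) and ENSRNOG00000036726 (0.28, r = -0.64). The same held for ENSRNOG00000055229 (0.19, against 0.25 for its partner) and ENSRNOG00000036451 (0.0955, against 0.1044). The partner of ENSRNOG00000036451 was more abundant (mean 10.79, against 7.41), so the sum mostly follows the partner. For ENSRNOG00000055608 the SD of the sum was not below both (0.86, against 0.46 for its partner). Nor was it for ENSRNOG00000012216, ENSRNOG00000015596, ENSRNOG00000047746 or the row of ENSRNOG00000046600. All these partners were picked by correlation after the values were seen.

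Certain libraries set the extremes. For each profile, the rat farthest from the median was found in units of the scaled median absolute deviation (MAD). Male 38 was the farthest rat for 34 of 158 profiles (21.5%), against 26.3% of all genes past the mean and minimum. It was over 4 scaled MADs away in 14 profiles (8.86%, against 7.38%), lowest of all rats in 30 and highest in 11. Male 26 was farthest in 11 profiles (6.96%, against 1.09%), female 22 in 9 (5.70%, against 2.08%), male 1 in 8 (5.06%, against 2.27%) and male 7 in 7 (4.43%, against 1.41%). Most of the 11 profiles of male 26 were of group B, where it had the lowest score, -2.30. Profiles of a group are correlated, so these shares can count the same deviation several times. Male 14, the shallowest, was farthest in 4 (2.53%, against 6.29%). The farthest rat was never 1 of 32 libraries. Some rat lay over 4 scaled MADs from the median in 33 profiles (20.9%), against 12.985% of the genes past the mean and minimum. The choice of variable genes favors such profiles, since a far rat adds to the SD, so the higher share is not a result about them.

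**Figure D4:**
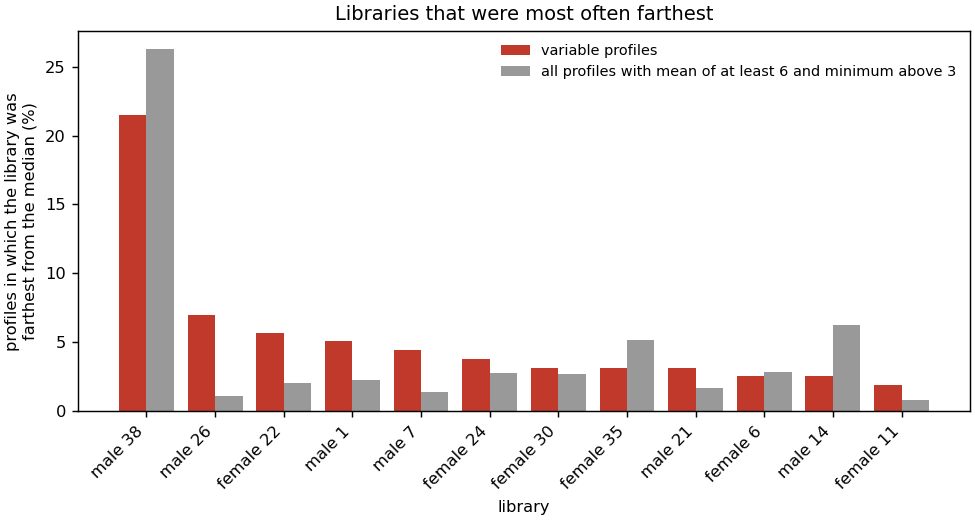
Percent of profiles in which each of 12 libraries was the farthest from the median in scaled MADs, for the 158 variable profiles (red) and for all 11852 distinct profiles with a mean of at least 6 and a minimum above 3 (grey). Male 38 stands first in both, at 21.5% and 26.3%, and male 26 stands higher in the variable profiles, at 6.96% against 1.09%. Most of those profiles of male 26 belong to the correlated group B.

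In some genes a few rats made the spread. ENSRNOG00000060047 read 5.13, or 34 adjusted counts, in male 38, against 7.18, 9.70 and 9.94 (lowest, median and highest) in the other 80. Its deviation from the median was -24.2 scaled MADs, and without it the SD was 0.47. ENSRNOG00000007738 read 7.06 in female 18 against a median of 10.21 in the others, whose lowest value was 7.08, so that rat was not alone. ENSRNOG00000045554 read 7.49 in female 35 against a median of 10.87 and a lowest value of 7.63 in the others. Leaving out the farthest rat of each gene took 37 of 158 profiles under the SD threshold, and 125 of the 162 identifiers kept an SD of at least 0.6.

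Few variable genes moved with depth. With the log2 of depth in the fit beside sex and batch, 10 were called (6.17%), against 8.3% of all genes and 10.1% of those past the mean and minimum. Of the 10, 2 rose and 8 fell with depth, where 4.63% of all genes rose and 3.67% fell. The 10 were 6 distinct profiles. ENSRNOG00000047746 fell by 1.66 per doubling of depth (SE 0.44, adjusted p 0.012, limma), as did the ENSRNOG00000046600 row and ENSRNOG00000058555, and ENSRNOG00000062261 rose by 1.05 (SE 0.23, adjusted p 0.0026, limma). Run 2, where ENSRNOG00000047746 was highest, was also the run of lowest median depth. Without male 14, limma called 0 variable genes for depth. There, 17 variable genes and 2121 of all 17252 genes had an unadjusted p under 0.05.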

How the data were processed

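RNA of infralimbic cortex was sequenced as 1 library per rat. The authors ran cutadapt on the reads, estimated counts per gene with RSEM on Ensembl rat transcripts (Rnor_6.0), applied an upper-quartile adjustment with DESeq2 and filtered genes and libraries. They deposited log2 values of the adjusted count plus 1. Tool versions were not given in the sources used here. Values under 100 were whole numbers in 100.0% of cases (tolerance 0.01), so the counts were rounded, and no count model was used. Reads that match several genes are shared by RSEM according to estimated shares, which can give near-identical rows. Each library summed to between 16.9 and 20.003 M adjusted counts, and depth was this sum over the adjusted counts that 1 read is worth. Depth limits the precision of low values most.

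Labels gave sex and batch. Numbers after a sex (male 38) are names of libraries only. Column runs were read from the order of column names. The members, lists and tests were chosen with earlier results of these data known. Tests used limma 3.58.1 (R 4.3.3; lmFit, eBayes with an intensity trend, 2-sided) on all 17252 genes, with Benjamini-Hochberg adjusted p-values and a threshold of 0.05; all 162 variable genes entered every test. P-values measure the spread between rats. Batch, run and depth tests left out the 1 rat of batch 5, and the sex test used all 81 rats. Clustering used scipy 1.17.1. The depth estimate and the limma fits were tested on simulated data with known answers.

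By rule, the genes named were to be the 10 of largest SD, the 5 leading genes of each of the 8 largest groups, the 5 smallest adjusted p-values between batches and between runs given batch, the 5 with the most extreme library and those next to the SD threshold, limited to 4 because the table and the reference used here pair no identifier with a symbol; names were taken from no other source. ENSRNOG00000047746, ENSRNOG00000062158, ENSRNOG00000046600 and ENSRNOG00000007830, the 4 of largest SD, fall under that limit. The other genes named were chosen after their values were seen, mostly by the same parts of the rule. Gene lists, cell type markers and promoter motifs need symbols and were not used here. The alternatives tried are given below.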

Additional observations from a re-analysis of the deposited data

Results flagged for a closer look

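The 10 variable genes of largest SD and the leading genes of the groups (19 genes in all) were examined in the batches with 4 to 10 rats of a sex, 57 sets of rats in all, for a rat whose gap to its nearest neighbour was a large part of the whole range by Dixon's criterion. In 7 sets 1 rat stood apart. Chance flags about 1 in 20 sets, but sets of one gene or group are not independent. The genes were also chosen by their spread, to which a lone rat adds, so the count cannot be compared with that rate. Among the 4 females of batch 2, female 13 was low for ENSRNOG00000047746 (14.46, nearest other 15.84) and for ENSRNOG00000058555 of the same group D (7.68, nearest other 9.60), and female 26 was high for ENSRNOG00000058039 (9.64, nearest other 9.01). In batch 6, female 20 at 9.62 and male 7 at 10 were high for ENSRNOG00000016220, where the nearest rats of the same sex read 7.45 and 7.48. Also in batch 6, male 26 was low for ENSRNOG00000055608 (5.43, nearest other 8.40), and female 6 was high for ENSRNOG00000062127 (12.02, nearest other 10.75).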

How the results depend on the processing

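Over 94 alternatives, 75 counts stayed within 1.5 times the reported one. Counts of genes that differed between batches (105 to 128), of groups (8 to 12) and of profiles in groups (67 to 102) did so throughout. With inverse normal values per gene, 17 variable genes (10.5%, against 12.7% of all genes) were called between runs given batch. Between batches given run 0 were called (26, and 2935 of all 17252 genes, at an unadjusted p under 0.05). Between batches given run, the count was 0 within run 1 (19, and 784 of all genes, at an unadjusted p under 0.05). Between the sexes it was 4 without batch 2 or with no batch term, and 1 (ENSRNOG00000003183) without batch 3, without batch 4 or, added after seeing the data, within run 3. With depth it was 0 without male 14 or without batch 4 (17 and 20, and 2121 and 1374 of all genes, at an unadjusted p under 0.05). With depth it was also 3 without batch 3, 21 without batch 2 and, added after seeing the data, 18 without male 38. The number of variable genes was 87 by the SD after batch, run and sex (85 of them among the 162), 105 with the 2 farthest libraries of each gene left out, 404 and 86 at SD thresholds of 0.5 and 0.7, and 264 and 105 at means of 5 and 7; it was 169 without male 14 and 148 without male 38. The cause of these shifts was not tested, except that a looser or stricter threshold admits more or fewer genes by construction. No paired analysis was possible because no 2 libraries shared a rat and the numbers given to libraries are names only. Batch and column run can be told apart only through batch 3 and through batches 4 and 6 within run 3, what a run stands for was not given, and in bulk tissue fewer cells of a type and less RNA per cell cannot be told apart.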
